A study of Mus musculus with 23 samples.

Results

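The genes described here are 10 members of the bone morphogenetic protein (BMP) pathway: the ligand genes Bmp2, Bmp3, Bmp4, Bmp5 and Bmp7, the receptor genes Bmpr1a and Bmpr2, and the target genes Id1, Id2 and Id3. They were chosen by name, and all 10 were found among the 54347 genes of the deposited count table after its Ensembl identifiers had been matched to symbols with the version dropped. The cells came from the labial cervical loop, the epithelial fold at the growing end of the mouse lower incisor, of mice at postnatal day 2 that carry a Sox2-GFP reporter driven by the endogenous Sox2 promoter. All 4 groups carried that reporter and none received a treatment named in the labels, which name no strain. GFP fluorescence was used to sort Sox2-positive cells, called dental epithelial stem cells in the labels, away from Sox2-negative cells. The negative group is thus defined by the lack of GFP and not by a cell type, and it can hold many cell types of the dissected region. RNA was sequenced by the Smart-seq2 protocol in batch A (6 Sox2-negative and 6 Sox2-positive libraries) and batch B (4 Sox2-negative and 7 Sox2-positive libraries), done on different days with different mice. The labels do not say whether the libraries of a batch came from separate mice, so the p-values measure the spread between libraries, which may be technical.

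BMPs are secreted dimers of the TGF-beta superfamily that bind a complex of type I receptors, such as BMPR1A, and type II receptors, such as BMPR2. The activated type I receptor phosphorylates SMAD1, SMAD5 and SMAD9, which enter the nucleus with SMAD4 and switch on targets of which the Id genes are the best known. Id proteins lack a DNA-binding domain and hold E proteins, which are basic helix-loop-helix factors, away from DNA. In the incisor, BMP signals pass between epithelium and mesenchyme and are known for their part in ameloblast differentiation, ameloblasts being the epithelial cells that make enamel.

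Depth was 2305588 to 9541800 estimated counts a library (median 4831379). The level that 3 counts stand for lay between 0.355 and 1.29 CPM, where CPM is a count scaled to a common, TMM-adjusted library total; this floor covers counting error only. Sox2 checked the sort: it averaged 0.0436 ± 0.107 CPM (SD, n = 6) in batch A Sox2-negative, 7.27 ± 4.41 (n = 6) in batch A Sox2-positive, 0.297 ± 0.594 (n = 4) in batch B Sox2-negative and 16.4 ± 2.91 (n = 7) in batch B Sox2-positive libraries. The summed level of 10 epithelial markers was 150 to 416 CPM in Sox2-negative and 3821 to 6153 CPM in Sox2-positive libraries, and all 10 were higher in the positive cells over both batches. The summed level of 10 mesenchymal markers was 11343 to 14401 CPM in the negative cells. In the positive cells it was 1404 to 1999 CPM in batch A and 629 to 715 CPM in batch B, with Twist1 at 0 in every positive library. Endothelial markers (8 genes) summed to at most 35.9 CPM and leukocyte markers (10 genes) to at most 14.8 CPM in the positive libraries, and 4 leukocyte genes were at 0 throughout each positive group. Erythroid markers (7 genes) summed to 985 to 1188 CPM in batch A and 53611 to 62038 CPM in batch B among Sox2-negative libraries, and to at most 11.6 CPM among positive ones. Glial and neural crest markers (7 genes) summed to 981 to 1263 CPM in batch A positive libraries and to at most 83.4 CPM in any other group. Pericyte and smooth muscle markers (5 genes) summed to 118 to 165 CPM in batch A and 468 to 501 CPM in batch B positive libraries. In negative libraries their sums were 472 to 818 and 383 to 444 CPM. The batch B libraries numbered 1 and 2 stood apart: their epithelial sums were 4222 and 4007 CPM in Sox2-positive cells, against 5791 to 6153 CPM in the other 5, and their mesenchymal sums 11606 and 11343 CPM in Sox2-negative cells, against 13811 and 14401 CPM in the other 2. Results were therefore also computed without them, a setting chosen after seeing the data. In bulk libraries, fewer cells of a type and less RNA per cell cannot be told apart.

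Across both batches, with batch as a term in the model, the ligands Bmp2, Bmp4 and Bmp5 were far lower in the Sox2-positive cells, and Bmp7, Bmpr1a and Id3 were higher. Bmpr2, Id1 and Id2 were lower by smaller amounts, and Bmp3 did not pass the test. That makes 9 of 10 members called (edgeR's quasi-likelihood F test with a threshold of 0.05 on the adjusted p, two-sided, Benjamini-Hochberg over 17190 genes), 3 higher and 6 lower. The background was high: 57.5% of all tested genes were called, 24.9% higher and 32.5% lower. The median log2 fold change was -0.48 over the members and -0.12 over all genes. In batch A alone 6 members were called, 3 higher and 3 lower, where 43.4% of 14296 tested genes were called (19.3% higher, 24.2% lower). In batch B alone 9 were called, 3 higher and 6 lower, where 54.7% of 15765 genes were called (27.1% higher, 27.6% lower). The CPM ranges of the populations did not overlap for 4 members in batch A (Bmp2, Bmp4, Bmp7 and Id3), against 28.1% of tested genes. In batch B they did not overlap for 9 members (all but Bmp7), against 38.1%. Scaling by total counts in place of TMM moved the median of all genes from -0.12 to 0.00 and the split of calls from 4288 higher and 5591 lower to 4966 and 5051. No member changed its call or direction in these 3 comparisons with that scaling.

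**Figure D1:**
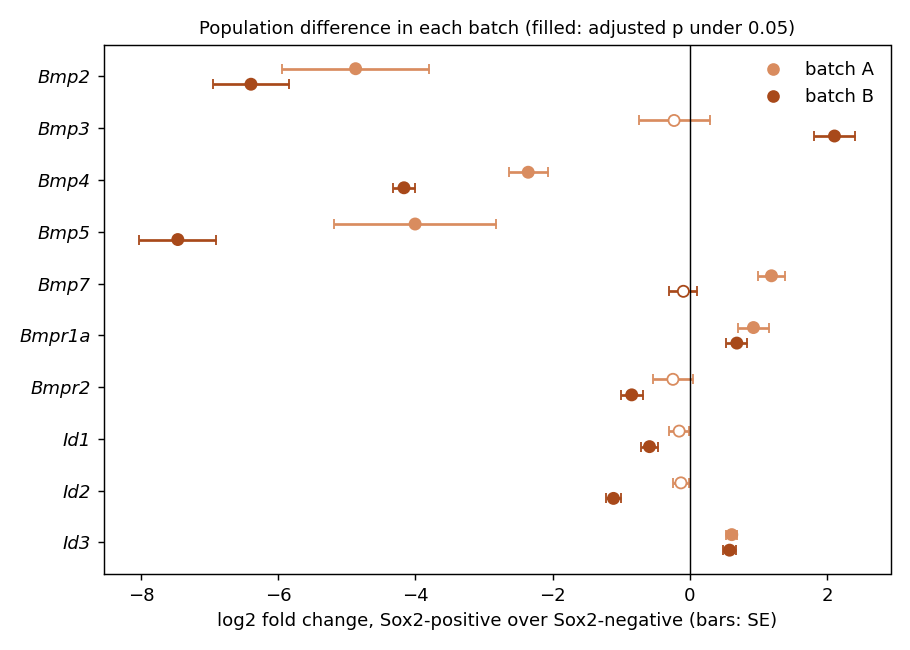
Log2 fold change of Sox2-positive over Sox2-negative libraries (horizontal axis, bars SE) for each of the 10 genes in batch A (light) and batch B (dark), filled where the adjusted p was under 0.05. Bmp2, Bmp4 and Bmp5 lie far to the left in each batch (-2.35 to -7.46). The difference itself differed between the batches for Bmp3, Bmp4, Bmp7 and Id2.

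Bmp4 (ENSMUSG00000021835.15; chromosome 14, 46383520 to 46390669, minus strand, mm10), a ligand known from early tooth mesenchyme, had the highest level per length of the 5 ligands in the Sox2-negative cells. Its CPM ran from 121 through a median of 181 to 235 in batch A Sox2-negative libraries and was 188, 174, 218 and 213 in the 4 batch B ones. In Sox2-positive libraries it ran from 19.9 (median 29.6) to 67.2 in batch A and from 8.76 (median 9.21) to 14.7 in batch B. The negative groups overlapped each other, every batch A positive library lay below them, and every batch B positive library lay below those. The log2 fold change was -3.23 (SE 0.26, adjusted p 4.02e-11) over both batches, -2.35 (SE 0.29, adjusted p 6.61e-06) in batch A and -4.17 (SE 0.17, adjusted p 6.11e-12) in batch B. The difference in batch B minus that in batch A was -1.87 (SE 0.34, adjusted p 0.000822). The positive mean was 19.5% of the negative mean in batch A and 5.36% in batch B. The mesenchymal marker sum stood at 12.7% and 5.27% in the same comparison, and its part in the Bmp4 values was not tested. Over the 6 batch A positive libraries, replicates 4 and 3 had the highest sums (1999 and 1747 CPM) with 42.7 and 35.4 CPM of Bmp4, replicates 1, 2 and 6 had sums of 1404 to 1600 CPM with 19.9 to 23.9 CPM of Bmp4, and replicate 5 had a sum of 1490 CPM with 67.2 CPM of Bmp4. The opposite-strand genes Gm15217 and Gm15222 overlap Bmp4, and Gm15222 averaged at most 25.6 CPM in any group. Of the 31-base words of Bmp4, 3.4% also occur on the opposite strand of other genes. The strand setting of the counting was not given in the sources used here, so reads from such shared stretches cannot be told apart.

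Bmp2 (ENSMUSG00000027358.6; chromosome 2, 133552159 to 133562885, plus strand), a close relative of Bmp4, was high in the Sox2-negative libraries and at or near 0 in the Sox2-positive ones. It ran from 6.02 (median 13.7) to 22.5 CPM in batch A and was 42.4, 47.4, 55.4 and 59.8 CPM in batch B. In the positive libraries it was 0 in 4 of 6 in batch A, with a highest value of 2.85 CPM from 12 counts, and 0 in 3 of 7 in batch B, with a highest value of 1.82 CPM from 10 counts. No positive library of a batch reached the lowest negative one. Summed counts put the positive level at 2.84% of the negative level in batch A (exact 95% interval 1.495 to 4.91) and at 1.102% in batch B (0.662 to 1.73), intervals that cover counting error only. Of the 13 positive counts in batch A, 12 came from replicate 4, and the share was 0.253% without it (0.00638 to 1.42), with a fitted log2 fold change of -7.81 against -4.87. In batch B it was 0.622% without replicate 6, which held 10 of 19 counts. With both batches fitted together, the log2 fold change came to -5.73 (SE 0.64, adjusted p 2.06e-08), a value that depends on the prior count where libraries are at 0. The batch A Sox2-positive library that held 2.85 CPM of Bmp2 had the highest leukocyte sum (14.5 CPM) and the highest mesenchymal sum (1999 CPM) of its group. In batch B the highest Bmp2 (replicate 6, 1.82 CPM) went with a leukocyte sum of 7.08 CPM and the highest leukocyte sum (replicate 4, 14.8 CPM) with 1.21 CPM of Bmp2, and the part of these cells was not tested.

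Bmp5 (ENSMUSG00000032179.7; chromosome 9, 75775364 to 75900310, plus strand), a ligand known from skeletal development, was also lower in the Sox2-positive cells of each batch. Its CPM ran from 1.31 (median 13.7) to 40.6 in batch A Sox2-negative libraries and was 21.2, 24.0, 30.2 and 27.9 in batch B. It was 0 in 4 of 6 batch A positive libraries, with 4.65 CPM from 21 counts in replicate 1, and no batch B positive library held more than 2 counts. The ranges overlapped in batch A and not in batch B. The positive level was 5.70% of the negative level in batch A (exact 95% interval 3.71 to 8.43) and 0.461% in batch B (0.125 to 1.19). Of the 27 positive counts in batch A, 21 came from replicate 1, and the share was 1.48% without it (0.541 to 3.26), with a fitted log2 fold change of -5.92 against -4.00. In batch B it was 0.291% without replicate 2, which held 2 of 4 counts. With both batches fitted together, it came to -5.36 on the log2 scale (SE 0.79, adjusted p 1.97e-06). Of the 31-base words of Bmp5, 45.9% also occur on the opposite strand of other genes, Gm26903 among them, which averaged at most 3.16 CPM in any group.

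Bmp7 (ENSMUSG00000008999.7; chromosome 2, 172868012 to 172940321, minus strand), a ligand known from kidney, eye and skeletal development, went the other way in batch A. Its CPM ran from 33.8 (median 48.2) to 66.7 in the negative and from 80.2 (median 113) to 155 in the positive libraries of that batch, with no overlap. In batch B the negative libraries had 67.4, 82.1, 125 and 94.0 CPM and the positive ones ran from 64.0 (median 82.4) to 123, so the groups overlapped throughout. The log2 fold change was 1.19 (SE 0.20, adjusted p 0.000191) in batch A and -0.09 (95% interval -0.49 to 0.31, adjusted p 0.722) in batch B. The difference between the batches was -1.34 (SE 0.29, adjusted p 0.00416) and the log2 fold change over both batches 0.54 (SE 0.20, adjusted p 0.0203). The 7 glial and neural crest markers summed to 28.2 to 72.8 CPM in negative and 981 to 1263 CPM in positive libraries of batch A, and to 39.3 to 65.1 and 52.3 to 83.4 CPM in batch B. The list was mixed: of 7 markers tested in batch A, 6 were higher and 1 lower, and of 6 tested in batch B, 4 were higher and 1 lower. Between batches, Bmp7 was higher in the negative cells of batch B (0.86, adjusted p 0.0110). It was not called in the positive cells (-0.49, adjusted p 0.116). The part of these markers in the Bmp7 values was not tested.

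Bmp3 (ENSMUSG00000029335.5; chromosome 5, 98854415 to 98884396, plus strand), a divergent member known to oppose other BMPs in bone, was higher in the Sox2-positive cells of batch B and was not called in batch A. In batch A its CPM ran from 4.71 (median 16.0) to 34.8 in negative and from 4.65 (median 11.95) to 29.4 in positive libraries, and the log2 fold change was -0.23 (SE 0.52, adjusted p 0.749). In batch B the negative libraries had 5.59, 13.5, 5.38 and 7.65 CPM and all 7 positive ones lay above them, from 26.4 (median 30.7) to 44.1, with a log2 fold change of 2.11 (SE 0.30, adjusted p 1.81e-05). The difference between the batches was 2.27 (SE 0.62, adjusted p 0.0241). Its adjusted p rose to 0.0627 without batch B Sox2-negative replicate 1 and to 0.0565 without replicate 3, and without the batch B libraries numbered 1 and 2 the difference was 2.62 (adjusted p 0.0985). Over both batches Bmp3 was not called (0.74, 95% interval -0.07 to 1.54, adjusted p 0.126). It was called without batch A Sox2-negative replicate 3 (0.98, adjusted p 0.0288) or without batch A Sox2-positive replicate 1 (0.97, adjusted p 0.0394). The summed level of the 5 pericyte and smooth muscle markers also differed between the batches. Its positive mean was 21.0% of the negative mean in batch A and 117% in batch B, against 84.9% and 411% for Bmp3. Positive libraries held 118 to 165 CPM of these markers in batch A and 468 to 501 CPM in batch B. The list was mixed: of 4 markers tested, 1 was higher and 2 lower in batch A, and 2 higher and 1 lower in batch B. Their part in the Bmp3 values was not tested.

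**Figure D2:**
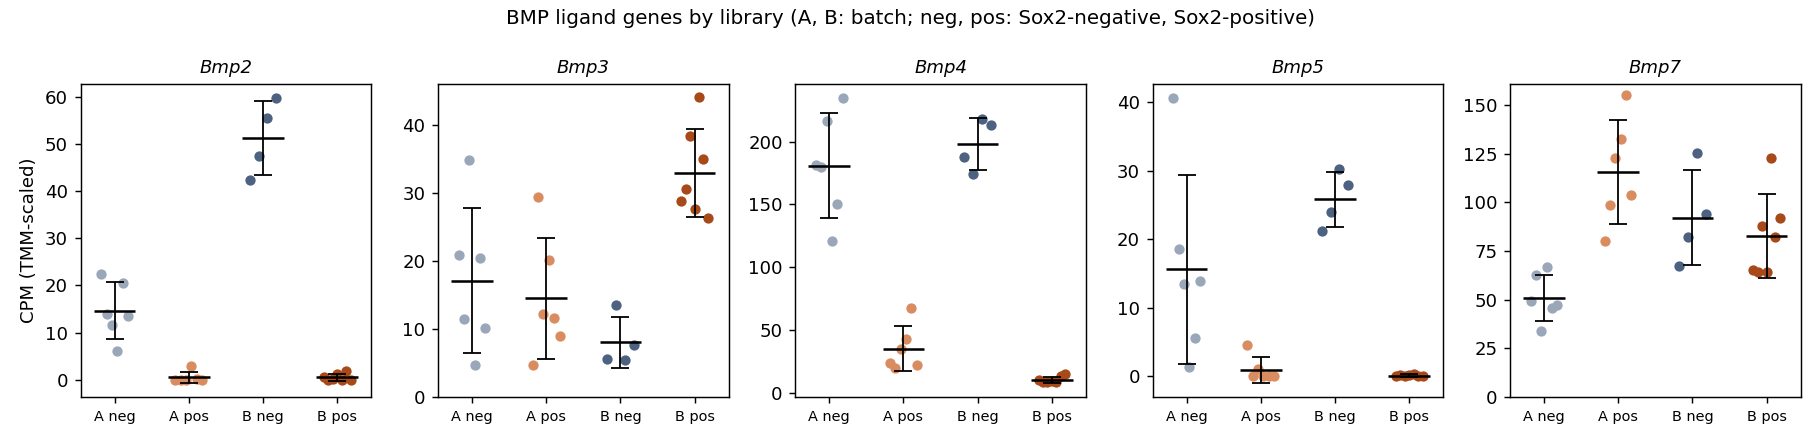
CPM of the 5 ligand genes (vertical axes, linear, each from 0) in every library of the 4 groups, with the mean as a line and the SD as bars. Bmp2 and Bmp4 are lower in every positive library than in the negative libraries of its batch. Bmp5 shows this in batch B and overlaps in batch A, and Bmp7 separates the populations in batch A alone.

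Divided by median transcript length, which allows levels to be compared between genes, the 5 ligands ranked differently in the populations. Bmp4 made up 82.0% of their summed level per length in batch A Sox2-negative libraries (range 77.4 to 87.3) and 73.5% in batch B ones (70.7 to 77.3). In the positive libraries its share was 36.8% in batch A (28.3 to 47.7) and 19.9% in batch B (12.2 to 23.9). Bmp7 held 11.4% and 15.6% in the negative groups of batches A and B, and 59.5% (50.9 to 67.0) and 69.6% (66.0 to 77.6) in the positive groups. The ranges of each share did not overlap between populations in either batch. With the longest transcript as the length, the Bmp4 shares were 77.6%, 67.1%, 32.0% and 16.0% in batch A negative, batch B negative, batch A positive and batch B positive libraries.

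Bmpr1a (ENSMUSG00000021796.15; chromosome 14, 34410734 to 34503341, minus strand), the gene of a type I receptor, was higher in the Sox2-positive cells of each batch. Its CPM ran from 35.9 (median 62.6) to 92.7 in negative and from 92.6 (median 131) to 149 in positive libraries of batch A. In batch B it was 99.3, 76.4, 66.4 and 92.8 in negative and 109 (median 124) to 161 in positive libraries. The groups did not overlap in batch B and met at 92.6 and 92.7 CPM in batch A. The log2 fold change was 0.78 (SE 0.15, adjusted p 6.50e-05) over both batches, 0.93 (SE 0.23, adjusted p 0.00409) in batch A and 0.69 (SE 0.15, adjusted p 0.00123) in batch B. The difference between the batches was -0.31 (SE 0.29, adjusted p 0.612). The opposite-strand gene Gm17110 overlaps Bmpr1a, and 4.1% of the 31-base words of Bmpr1a also occur on the opposite strand of another gene.

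Bmpr2 (ENSMUSG00000067336.6; chromosome 1, 59763400 to 59879014, plus strand), the gene of the BMP type II receptor, stood highest in batch B Sox2-negative libraries, at 174, 159, 148 and 136 CPM. All other libraries lay below them: 39.3 (median 61.8) to 91.9 in batch A negative, 34.8 (median 46.9) to 97.2 in batch A positive and 55.6 (median 84.2) to 103 in batch B positive libraries. The log2 fold change of the populations was -0.85 (SE 0.16, adjusted p 0.000332) in batch B and -0.25 (95% interval -0.82 to 0.33, adjusted p 0.525) in batch A. The difference between batches did not pass the test (-0.67, SE 0.35, adjusted p 0.301). Over both batches it was -0.57 (SE 0.18, adjusted p 0.00984), and -0.44 with an adjusted p of 0.0911 without the batch B libraries numbered 1 and 2, which held the highest Bmpr2 of each batch B group. The erythroid sum was 53611 to 62038 CPM in the batch B Sox2-negative libraries where Bmpr2 was highest, and its part was not tested.

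The 3 Id genes did not move together. Their start regions are shown because they are the direct readout of the pathway and differed in direction, with Bmp4 beside them as the ligand highest per length in the negative cells. The windows hold 250 bases before to 50 after the annotated start, 5′ to 3′ on the gene's strand, from RefSeq on GRCm38.p6, the assembly that mm10 stands for. Such a window was found for 6 of the 10 members (Bmp4, Bmp5, Bmpr1a, Bmpr2, Id2 and Id3). Capitals mark GGCGCC, a GC-rich element that SMAD1 and SMAD5 can bind, searched on both strands (it is its own reverse complement).
Id2 (chr12:25096043-25096342, minus strand): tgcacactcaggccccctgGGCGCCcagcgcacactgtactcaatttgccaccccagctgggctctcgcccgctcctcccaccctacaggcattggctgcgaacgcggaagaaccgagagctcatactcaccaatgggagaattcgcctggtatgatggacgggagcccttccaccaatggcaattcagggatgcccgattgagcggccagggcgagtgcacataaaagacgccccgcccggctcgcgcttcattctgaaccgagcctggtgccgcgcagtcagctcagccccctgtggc
Id3 (chr4:136143572-136143871, plus strand): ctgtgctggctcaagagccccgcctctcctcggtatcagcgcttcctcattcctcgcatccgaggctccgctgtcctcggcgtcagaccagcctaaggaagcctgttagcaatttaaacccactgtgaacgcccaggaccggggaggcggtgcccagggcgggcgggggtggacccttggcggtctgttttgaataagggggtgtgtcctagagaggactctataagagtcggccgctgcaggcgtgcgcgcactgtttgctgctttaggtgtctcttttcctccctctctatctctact
Bmp4 (chr14:46390620-46390919, minus strand): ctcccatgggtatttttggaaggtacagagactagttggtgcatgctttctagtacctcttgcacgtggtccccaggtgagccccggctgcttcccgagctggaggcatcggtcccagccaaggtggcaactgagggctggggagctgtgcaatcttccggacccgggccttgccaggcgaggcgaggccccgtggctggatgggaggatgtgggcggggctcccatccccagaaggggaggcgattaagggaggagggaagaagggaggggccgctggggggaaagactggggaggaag
Id2 held 1 match, with its first base at -231 from the start, and Id3 and Bmp4 held none in these windows. Bmpr1a (-198) and Bmpr2 (-105) also held 1 each and Bmp5 none, while 11.9% of all 32851 windows of that length held at least 1. Other motifs were searched too and are not marked. The SMAD box GTCT, found in 88.0% of all windows, had 1 match in Id2, 3 in Id3 and 2 in Bmp4. The spaced GC-rich element GCCGNCGC (9.8% of windows) had none in Id2, Id3 and Bmp4 and 3 in Bmpr1a. The E-box CACGTG (7.2% of windows) had 1 match in Bmp4 and none in Id2 and Id3. These matches are a description of the letters and were not tested as binding sites.

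Id3 (ENSMUSG00000007872.3; chromosome 4, 136143497 to 136145755, plus strand) had the highest level per length of the 10 genes in every group and was higher in Sox2-positive cells of each batch. Its CPM ran from 496 (median 546) to 603 in batch A negative and from 759 (median 809) to 932 in batch A positive libraries. In batch B it was 417, 437, 445 and 442 in negative and 518 (median 629) to 719 in positive libraries. The populations did not overlap in either batch, and the log2 fold changes were close: 0.61 (SE 0.08, adjusted p 1.12e-05) in batch A and 0.58 (SE 0.10, adjusted p 0.000144) in batch B. The difference between them was -0.10 (SE 0.12, adjusted p 0.737), and the fit of both batches gave 0.56 (SE 0.06, adjusted p 3.47e-08).

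Id2 (ENSMUSG00000020644.9; chromosome 12, 25093799 to 25097140, minus strand) stood at a like level in 3 groups and lower in the fourth. Its CPM ran from 186 (median 234) to 274 in batch A negative and from 187 (median 216) to 243 in batch A positive libraries, and was 259, 221, 209.7 and 242 in batch B negative ones. All 7 batch B positive libraries lay below these, from 87.5 (median 101) to 115. The log2 fold change of the populations was -0.13 (95% interval -0.36 to 0.10, adjusted p 0.393) in batch A and -1.11 (SE 0.11, adjusted p 4.87e-07) in batch B. The difference between the batches was -1.05 (SE 0.16, adjusted p 8.11e-05), the smallest adjusted p of the 10 members in that comparison. The summed level of the ameloblast markers also differed between the batches. Its positive mean was 37.6% of the negative mean in batch A and 1.97% in batch B, against 91.0% and 44.0% for Id2. In batch A 3 of the 4 markers tested were lower, where Id2 was not called. Over both batches 1 of the 5 markers tested was higher and 4 were lower. Their part in the Id2 values was not tested.

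Id1 (ENSMUSG00000042745.9; chromosome 2, 152736251 to 152737410, plus strand) had the smallest log2 fold change of the 10 genes over both batches. Its CPM ran from 98.6 (median 129) to 142 in batch A negative and from 96.5 (median 104) to 137 in batch A positive libraries, which overlapped. In batch B it was 154, 171, 122 and 159 in negative and 78.7 (median 96.2) to 106 in positive libraries, which did not. The log2 fold change was -0.15 (95% interval -0.43 to 0.12, adjusted p 0.402) in batch A and -0.59 (SE 0.12, adjusted p 0.000809) in batch B, and the difference between batches did not pass (-0.50, SE 0.19, adjusted p 0.115). The call over both batches (-0.39, SE 0.10, adjusted p 0.00229) was lost without the filter on low counts (-0.31, adjusted p 0.0519) and without the batch B libraries numbered 1 and 2 (-0.25, adjusted p 0.0718).

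**Figure D3:**
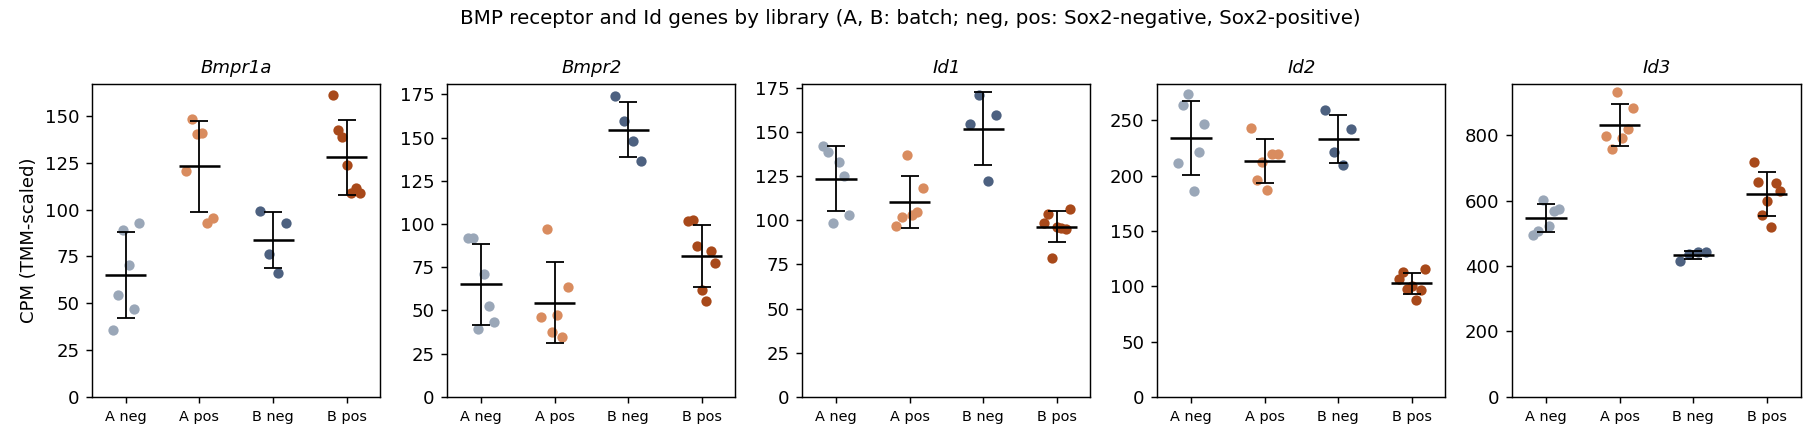
CPM of the 2 receptor and 3 Id genes (vertical axes, linear, each from 0) in every library of the 4 groups, with the mean as a line and the SD as bars. Id3 is higher in the positive group of each batch, and Id2 is low in the batch B positive group alone.

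Ratios of a pair of genes within a library do not depend on the library total. They come from the same counts, so they restate these contrasts as a description and are no separate support. The ratio of Bmp7 to Bmp4 CPM averaged 0.305 (range 0.156 to 0.551) in batch A negative and 0.461 (0.358 to 0.575) in batch B negative libraries. It averaged 3.65 (2.31 to 4.95) in batch A positive and 8.07 (6.14 to 13.7) in batch B positive libraries. Every positive library thus held more Bmp7 than Bmp4 counts and every negative library fewer. The Id3 to Id2 ratio averaged 2.37 (1.93 to 2.81) and 1.88 (1.61 to 2.12) in the negative groups of batches A and B, and 3.93 (3.28 to 4.40) and 6.05 (5.45 to 6.74) in the positive groups, with no overlap between populations. The Id3 to Id1 ratio ran from 2.55 to 6.12 in negative and from 5.41 to 8.26 in positive libraries, with no overlap within a batch. The Bmpr1a to Bmpr2 ratio overlapped between populations in batch A (0.392 to 2.26 against 1.5 to 3.75) and not in batch B (0.448 to 0.680 against 1.33 to 2.00). A ratio shows unequal change of the pair, not which of them changed.

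**Figure D4:**
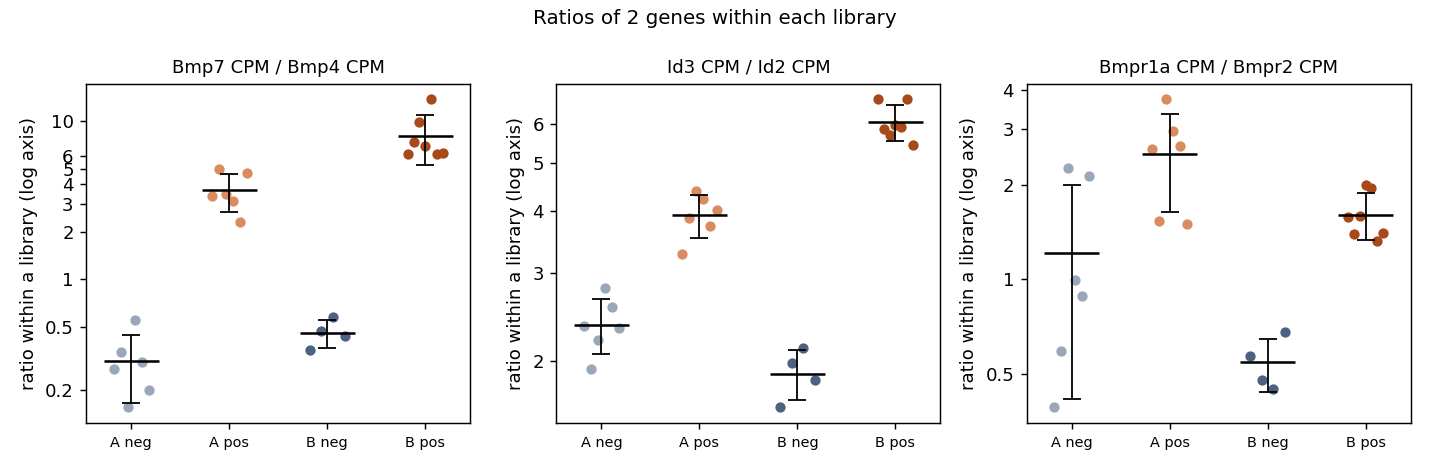
Ratio of CPM of a pair of genes within each library (log axes) for Bmp7 over Bmp4, Id3 over Id2 and Bmpr1a over Bmpr2 in the 4 groups, with the mean as a line and the SD as bars. The first lies below 1 in all negative and above 1 in all positive libraries.

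Batch holds day and mice together, so what separates the batches cannot be told apart. The population difference itself differed between batches for 4 members, Bmp3 upward and Bmp4, Bmp7 and Id2 downward in batch B, where 7.04% of 17190 genes were called (2.82% higher, 4.22% lower). Their values stand above. For Bmp2 the interaction was -1.53 (SE 1.24, adjusted p 0.552) and turned to 1.42 without batch A Sox2-positive replicate 4, and for Bmp5 it was -3.47 (SE 1.42, adjusted p 0.155). Within Sox2-negative cells, 3 members were called between batches, against 11.2% of genes (5.85% higher, 5.35% lower in batch B). Bmpr2 was higher in batch B by 1.25 (SE 0.26, adjusted p 0.00211) and Bmp7 by 0.86 (SE 0.22, adjusted p 0.0110), and Id3 was lower (-0.33, SE 0.09, adjusted p 0.0197). The Bmp7 call was lost without batch B Sox2-negative replicate 3 (0.69, adjusted p 0.0610), and the Id3 call without replicate 1 (adjusted p 0.0782) or 2 (adjusted p 0.0561) and with no filter beyond 1 count (-0.32, adjusted p 0.137). Without the batch B libraries numbered 1 and 2 the count fell from 3 to 1. For Bmp2, whose CPM did not overlap between these groups, the log2 difference was 1.80 (SE 0.74, adjusted p 0.119), and it was called without batch A Sox2-positive replicate 4 (adjusted p 0.0385). Within Sox2-positive cells, 3 members were called, all lower in batch B, against 10.4% of genes (4.85% higher, 5.54% lower). These were Bmp4 (-1.74, SE 0.24, adjusted p 8.72e-06), Id2 (-1.05, SE 0.11, adjusted p 4.11e-08) and Id3 (-0.42, SE 0.08, adjusted p 0.000437). Without batch A Sox2-positive replicate 2 the count was 5, with Bmp3 (1.53, adjusted p 0.0172) and Bmpr2 (0.84, adjusted p 0.0138) added. The ranges of the batches did not overlap for 4 members in negative cells (Bmp2, Bmp7, Bmpr2 and Id3; 8.87% of genes) and for 3 in positive cells (Bmp4, Id2 and Id3; 8.56%). In the positive groups the glial and neural crest marker sum was 981 to 1263 CPM in batch A and 52.3 to 83.4 CPM in batch B, and the ameloblast sum 293 to 349 and 9.80 to 17.3 CPM. Their part in these differences was not tested. With total-count scaling the calls over all genes were split into 661 higher and 1388 lower in negative cells, against 1005 and 919 with TMM, and into 666 and 1214 in positive cells, against 833 and 952, and the members called were unchanged in number.

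The other genes of the pathway were taken from 8 lists, with counts read against 24.9% higher and 32.5% lower over all genes. Of 10 other BMP and GDF ligand genes, 4 passed the filter on low counts, of which Bmp6 and Bmp8a were lower and Gdf6 higher (median log2 fold change -0.78). The batches differed: Gdf6 was higher in batch A (adjusted p 2.23e-06), at 12.9 CPM in positive and 0.0436 CPM in negative libraries on average, and not called in batch B (0.06, adjusted p 0.947), with an adjusted p of 4.78e-05 for the interaction. Bmp8a was lower in batch B (-3.13, adjusted p 7.02e-06) and not called in batch A (-0.72, adjusted p 0.187), with an interaction of -2.46 (adjusted p 0.00994). Gdf5, not called over both batches, was higher in batch B (adjusted p 0.000588) and did not pass the filter in batch A. Its levels were low: it averaged 2.71 CPM in positive and 0.0408 CPM in negative libraries of batch B, with 2 counts in the lowest positive library. Of 9 other receptors and co-receptors, 8 were tested, 3 higher and 3 lower (median 0.01). Acvr1, the gene of another type I receptor, was higher by 0.99 (SE 0.20), the co-receptor gene Rgmb was higher by 1.42 (SE 0.28), and Neo1, the gene of an RGM receptor, was lower (-0.47, SE 0.11). Eng, an endothelial co-receptor gene, was lower (-2.71, SE 0.18), beside endothelial marker sums of 1026 to 1476 and 281 to 447 CPM in the negative groups of batches A and B. Bmpr1b averaged at most 0.294 CPM in any group and was not tested.

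The antagonist list split: of 14 genes, 12 were tested, 4 higher and 5 lower (median -0.50). Bmper (-3.78, SE 0.70) and Nbl1 (-3.18, SE 0.28), both genes of secreted BMP-binding proteins, were lower. Fst, the gene of follistatin, which binds activins and BMPs, was higher by 2.81 (SE 0.40), at 44.9 ± 12.8 CPM in batch A positive (SD, n = 6) against 7.36 ± 6.82 in negative (n = 6) libraries and 83.6 ± 18.5 in batch B positive (n = 7) against 10.2 ± 7.45 in negative (n = 4) libraries. Of 3 genes of the BMP1 family of proteases, which cleave procollagen and the antagonist chordin, 2 were tested and both were lower, Bmp1 by -0.75 (SE 0.13).

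Inside the cell, 4 SMAD genes were tested, 1 higher and 2 lower (median -0.62): Smad1 was higher by 0.62 (SE 0.15) and Smad5 lower (-0.71, SE 0.12). Of 5 inhibitors, 2 were lower and 3 not called over both batches (median 0.00). The lower ones were Smad6 (-1.79, SE 0.27), an inhibitory SMAD gene that is itself a BMP target, and Smurf2 (-2.04, SE 0.19), the gene of a ubiquitin ligase. In batch A 2 other inhibitors were higher, which were not called in batch B and were called in the interaction. Of 5 other target genes, Id4 was higher and 4 were lower over both batches (median -0.96). In batch A alone 1 was higher, 2 were lower and 2 were not called. Id4, the fourth Id gene, was higher by 1.72 (SE 0.20), at 56.9 ± 10.3 (SD, n = 6) against 20.6 ± 12.2 CPM (n = 6) in batch A and 96.5 ± 7.80 (n = 7) against 23.8 ± 6.26 (n = 4) in batch B. Msx1, a homeobox gene known from dental mesenchyme, was lower (-8.32, SE 0.42), at 344 and 414 CPM in the negative and 1.90 and 0.587 CPM in the positive groups of batches A and B. Dlx5, another homeobox gene, was lower as well (-0.96, SE 0.16). For Dlx5 the batches differed: -1.40 in batch A and -0.35 in batch B, with an interaction of 0.99 (adjusted p 0.00959). Of 3 E protein genes, 1 was higher and 2 lower (median -0.68), Tcf4 by -1.52 (SE 0.11) and Tcf12 by -0.68 (SE 0.15).

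**Figure D5:**
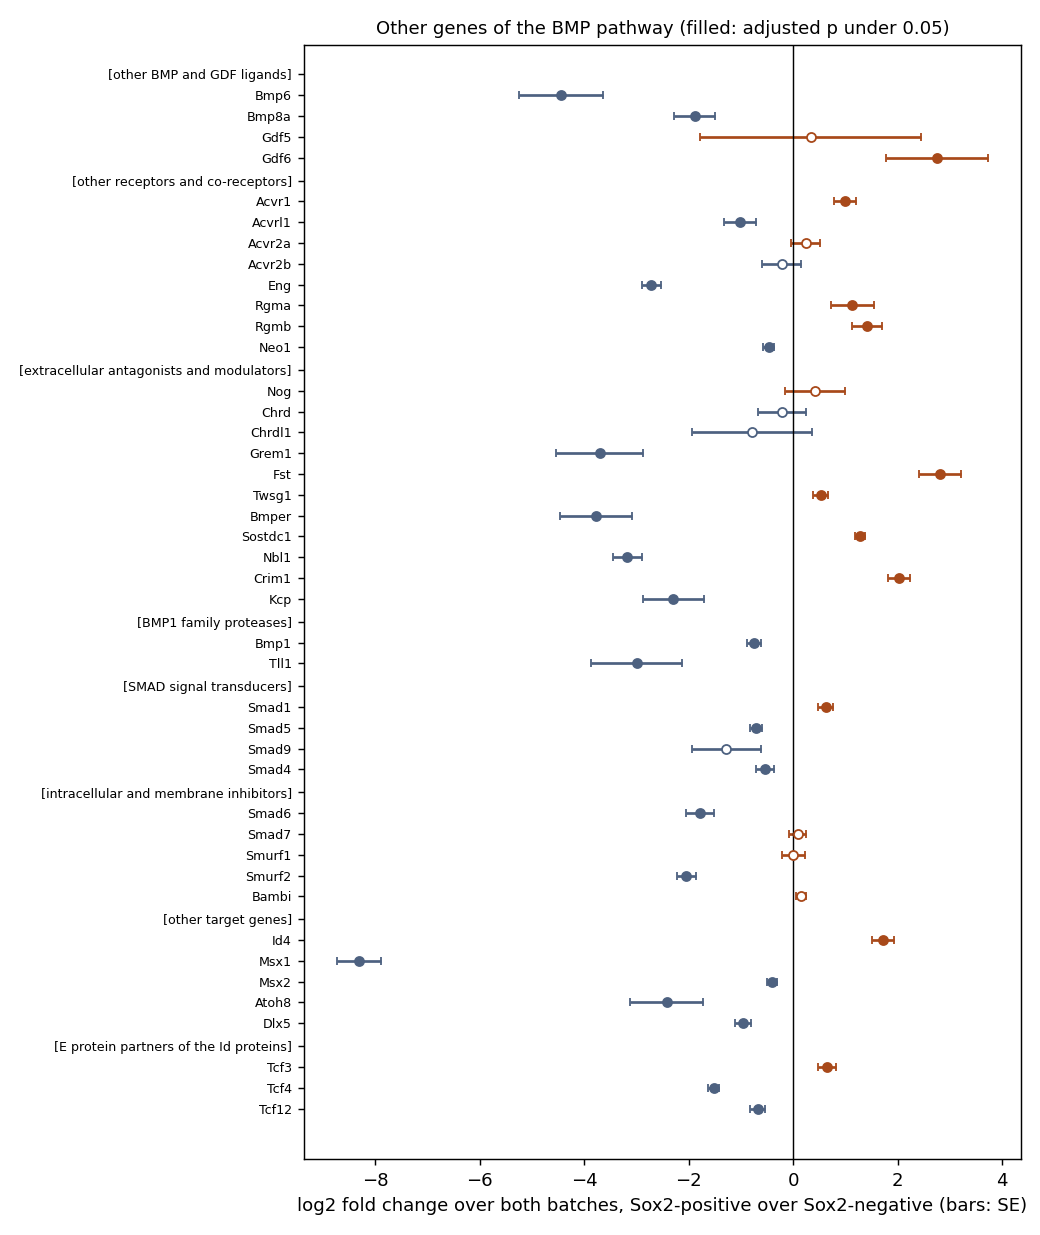
Log2 fold change over both batches (horizontal axis, bars SE) of genes of the 8 pathway lists, filled where the adjusted p was under 0.05, with positive values in brown and negative ones in blue. Msx1 lies farthest to the left, at -8.32.

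The genes nearest to each member were found by Pearson's r of log2 CPM over the 23 libraries, after each batch mean was taken away, among 11091 other genes with a mean of at least 10 CPM (11092 for Bmp5). The libraries share the sort and their depth, so these values mostly follow the population difference and are a description. Bmp4 lay nearest to Klf2 (0.980), a transcription factor gene, and Pcolce (0.973), the gene of a procollagen protease enhancer. Bmp2 lay nearest to Csf1r (0.958), a macrophage receptor gene, and Sfrp2 (0.957), the gene of a secreted WNT modulator. Bmp5 lay nearest to Pax9 (0.935), a transcription factor gene of dental mesenchyme, and 5033428I22Rik (0.933). Id2 lay nearest to the enamel matrix genes Enam (0.930) and Amelx (0.930). Id3 lay nearest to Sostdc1 (0.949), the gene of a secreted BMP and WNT antagonist, and Rap2b (0.943). Sostdc1 itself averaged 167 ± 26.2 CPM in batch A negative (SD, n = 6), 468 ± 40.7 in batch A positive (n = 6), 343 ± 34.0 in batch B negative (n = 4) and 703 ± 87.3 in batch B positive libraries (n = 7). For Bmpr1a they were Tug1 (0.882) and Dsg2 (0.881), a desmosomal cadherin gene. Nearest to Bmp7 were Nudt4 (0.892) and Gosr2 (0.855). Id1 had Ppp1r14b (0.896) and Chek2 (0.884), Bmpr2 had Tfrc (0.855), the transferrin receptor gene, and Pold1 (0.822), and Bmp3 had Hpcal1 (0.802) and Rnf113a2 (0.798). Among the members themselves Bmp2 and Bmp4 were the most alike (0.948) and Bmp2 and Id3 the most opposed (-0.852).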

How the data were processed

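The authors deposited 1 table of estimated counts (expected counts) per gene for 23 libraries, with 0 columns left unused here. Salmon, Trimmomatic, FastQC and mm10 are named, without versions, per the submitters' processing notes; the annotation and strand setting were not given in the sources used here. Symbols came from GENCODE M21 for 54094 identifiers (99.5%), and start regions from RefSeq. Values were rounded and tested with edgeR 4.0.16 (R 4.3.3; TMM, filterByExpr, quasi-likelihood F test, Benjamini-Hochberg over all genes tested), with batch as a term or within a batch; a model of the 4 group means gave the interaction and the batch differences. The SE is the absolute log2 fold change divided by the square root of F, and a 95% interval is 1.96 SE to each side. Every pair of libraries differed beyond sampling noise (lowest chi-square over its degrees of freedom 5.19), so none was treated as a repeat deposit of another; this does not show that they are biological replicates. All 10 members were named. List genes were named where called with 1 sign in all 3 population fits, with a mean of at least 5 CPM and at most 4 a list by size of change; genes named only in a count of 5 or fewer, Sostdc1, Bmpr1b and the overlapping antisense genes were named after their values were seen. Of the list genes, 1 is not reported here by name. The 2 nearest genes of each member were named. Members and lists were chosen with earlier results of these data known. Alternatives were RLE and total-count scaling, DESeq2 1.42.0, other filters, a replicate block, each library left out, and the longest transcript as length.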

Additional observations from a re-analysis of the deposited data

Results flagged for a closer look

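Libraries far from the rest of their group were found in 3 of 40 sets of a gene and a group, where chance gives about 1 in 20 (5%). Bmp2 was at 2.85 CPM in batch A Sox2-positive replicate 4, against at most 0.201 CPM in the other 5. Bmp5 was at 4.65 CPM in batch A Sox2-positive replicate 1, against at most 1.13 CPM in the other 5. Id1 was at 78.7 CPM in batch B Sox2-positive replicate 3, below the other 6, which ran from 94.8 to 106.

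The population difference differed between the batches for 4 genes by the interaction term (edgeR): on the log2 scale, batch B minus batch A, by 2.27 for Bmp3, -1.87 for Bmp4, -1.34 for Bmp7 and -1.05 for Id2. What separates the batches, day or mice, cannot be told apart.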

How the results depend on the processing

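Of the counts of calls, over members and over all genes, 84 of 88 from other settings and 229 of 230 with a library left out were within 1.5 times the reported count, and of the values for single genes 432 of 448 and 1118 of 1150 kept their direction and side of the threshold or moved by less than 1 SD. Without the batch B libraries numbered 1 and 2, chosen after seeing the data, calls over all genes were 481 in the interaction, 754 in Sox2-negative and 1159 in Sox2-positive cells between batches, and members called in Sox2-negative cells were 1 in place of 3 (Bmpr2 1.14, adjusted p 0.0600; Id3 -0.30, adjusted p 0.146); fewer libraries were fitted, and the cause was not tested further. Signs turned only for values that were not called: between batches, Bmp4 in Sox2-negative cells was -0.0135 with total-count scaling, Id2 there 0.0018 with no filter beyond 1 count, and Bmpr1a in Sox2-positive cells -0.0337 with total-count scaling (also -0.0337 with erythroid genes removed) and -0.0618 without batch B numbers 1 and 2. With 1 library left out, the ranges with a turned sign were -0.0642 to 0.0554 for Id2 between batches in Sox2-negative cells, -0.55 to 0.11 for Bmp3 in batch A, -2.29 to 1.42 for the Bmp2 interaction, -0.00169 to 0.13 for Bmpr1a and -0.47 to 3.22 for Bmp2 between batches in Sox2-positive cells, and -0.22 to 0.11 for Bmp7 in batch B. Members called with 1 library left out were 9 to 10 over both batches, 3 to 4 in the interaction, 2 to 4 between batches in Sox2-negative and 3 to 5 in Sox2-positive cells. DESeq2 called Bmp3 between batches in Sox2-positive cells (1.17, adjusted p 0.0262), and leaving out batch B Sox2-positive replicate 5 called Bmp7 there (-0.60, adjusted p 0.0434). Same-numbered libraries deviated together little (r from -0.0212 to 0.0444, highest at batch B numbers 1 and 2), which cannot show whether the numbers mark pairs. The replicate block used only numbers present in both populations of a batch, so batch B Sox2-positive replicates 5, 6 and 7 were left out. Over both batches and in batch B, the block and the fewer libraries cannot be told apart. With this block 8 members were called over both batches in place of 9 (Id1 -0.31, adjusted p 0.0643). Within batches A and B the block left 6 and 9 members called, and over all genes the 3 fits called 8812, 5829 and 6532. Levels of Bmp2 and Bmp5 in Sox2-positive libraries lie near the floor of 3 counts, which limits their fold changes.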
